A study of Rattus norvegicus with 2 samples.

Results

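The miR-30 family was followed on nHDL, native high-density lipoprotein isolated from human plasma, before and after contact with INS-1 832/13 cells, a rat insulinoma line that stands in for beta cells of the pancreas. Its rows were taken by name from the deposited table of reads per mature rat miRNA, as every miR-30 with a letter a to e and either arm, which gave 9 of 406 rows, 4 of the 5p arm and 5 of the 3p arm. No miR-30b row was among them, and that member is not analysed here. The cf-nHDL sample was nHDL kept for 24 h in medium without cells, and the INS-1-nHDL sample was nHDL kept for 24 h with the cells at 3 mM glucose, each at 1 mg/mL of nHDL and each re-isolated, per the labels, by immunoprecipitation of apoA-I, its main protein. The labels give the strain ins-1 832/13 for both samples, also for the cell-free one. For each condition, 3 samples were pooled before sequencing, so there is 1 library on either side and no replicate. All values below set 1 library against the other. Their intervals and limits cover counting error only, not the spread between libraries. PCR copies of a molecule were counted as separate reads, so the intervals may be too narrow even for the sampling of molecules.

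A miRNA hairpin gives rise to a strand from its 5p arm and another from its 3p arm, and usually one of them is loaded into Argonaute while the other is degraded. The loaded strand recognises messenger RNAs mainly through its seed, which is bases 2 to 8. The miR-30 family is expressed in many epithelia, in heart and in kidney. In islets it has been linked to the maintenance of the epithelial state, and miR-30d to insulin gene expression in beta cells.

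The 5p members are shown first, because they share their seed, in capitals, and differ only toward the 3′ end, which is what tells their reads apart. The sequences are from RefSeq (GRCr8), where 6 of the 9 rows had a mature entry; no entry was matched for miR-30d-5p, miR-30d-3p and miR-30e-3p.
miR-30a-5p: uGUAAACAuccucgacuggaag
miR-30e-5p: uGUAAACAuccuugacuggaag
miR-30c-5p: uGUAAACAuccuacacucucagc
All 4 5p rows had this seed in the deposited sequences, were identical over their first 11 bases, and 0 other rows of the table had the seed. miR-30a-5p and miR-30e-5p differ by C13U, counted from 1 at the 5′ end with the base of miR-30a-5p first. miR-30a-5p and miR-30d-5p also differ at 1 of 22 bases, and miR-30e-5p and miR-30d-5p at 2. miR-30c-5p is further away, with 5 differences from miR-30a-5p (C13A, G14C, G18C, G19U and A20C). The alignment allowed 1 mismatch, and reads of miR-30a-5p are told from those of either near copy by a single base. Of the 11 rows of the table with decimals in their counts, 0 were miR-30 rows.

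The 3p strands carry other seeds, again in capitals, and are shown because nearly all of them were without reads.
miR-30a-3p: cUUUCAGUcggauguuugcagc
miR-30c-1-3p: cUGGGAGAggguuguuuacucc
miR-30c-2-3p: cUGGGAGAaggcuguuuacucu
In the deposited sequences, 3 of the 5 3p rows (miR-30a-3p, miR-30d-3p and miR-30e-3p) shared the first of these seeds, and the 2 rows of miR-30c shared the second. The hairpins of miR-30a, with both mature strands in capitals, and of miR-30e, with its 5p strand in capitals, show how the strands are placed.
Mir30a: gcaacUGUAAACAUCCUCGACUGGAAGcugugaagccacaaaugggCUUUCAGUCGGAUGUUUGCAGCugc
Mir30e: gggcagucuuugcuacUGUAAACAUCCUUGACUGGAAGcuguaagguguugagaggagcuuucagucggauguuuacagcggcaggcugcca

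The deposited file places these miRNAs at 3 loci of the rat build that the study writes as rno5. miR-30a-5p lies at chr9:28377828-28377849 on the plus strand, and a copy of miR-30c-5p at chr9:28397577-28397599 on the same strand, with 19.7 kb between their starts. miR-30e-5p lies at chr5:143497806-143497827 on the minus strand, and the other copy of miR-30c-5p at chr5:143494807-143494829, 2999 bases away. miR-30d-5p lies at chr7:109228690-109228711 on the minus strand. In the annotation of GRCr8, a later assembly whose coordinates are not given here, Mir30e and Mir30c1 lie within Nfyc, the gene of a subunit of the transcription factor NF-Y. Mir30c2 overlaps the pseudogene Rbx1-ps1 and LOC134480562, Mir30d overlaps LOC102551574 and neighbours Mir30b, and Mir30a overlaps no listed gene.

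The cf-nHDL library held 6585 miRNA reads and the INS-1-nHDL library 18008, or 2.73 times as many. miR-375-3p alone, a miRNA typical of islets, took 3.51% and 62.3% of them, respectively. The filter on low counts asked for 5 reads or more in either library, which 81 of the 406 rows passed. Normalized counts are reads divided by the DESeq2 size factor of their library (0.71 for cf-nHDL, 1.41 for INS-1-nHDL), which sets a fold change of 1 at a read ratio of 1.98. Markers of blood cells and platelets took 39.9% of the reads on cf-nHDL but 5.11% on INS-1-nHDL, or 41.4% and 13.6% with miR-375-3p left out of the totals. Most of the share on cf-nHDL was miR-16-5p, with 2486 of 2629 reads. On INS-1-nHDL miR-16-5p had 741 reads, so the contrast in these shares rests largely on that row. The table listed 13 markers of blood cells and platelets, and 8 passed the filter, of which 0 were above 1.5-fold and 6 below 1/1.5. Over all 81 kept miRNAs, 49.4% were above 1.5-fold and 39.5% below 1/1.5. Of 13 markers of islet and neuroendocrine epithelium in the table, miR-375-3p included, 5 were kept, 3 of them above 1.5-fold and 2 below 1/1.5. With 5 rows, these counts are near the shares over all kept miRNAs and show nothing particular to the list. The part of blood cells or of islet epithelium in the miR-30 values was not tested.

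The miR-30 family took a small share of the reads in both libraries, and the make-up of that share differed between them. miR-30e-5p led on cf-nHDL and miR-30a-5p led on INS-1-nHDL. miR-30d was read from both arms on INS-1-nHDL, whereas 0 reads of any 3p row were found on cf-nHDL. Of the 9 rows, 5 had reads in at least 1 library and 4 passed the filter on low counts, namely miR-30a-5p, miR-30d-5p, miR-30e-5p and miR-30d-3p. The last of these passed only through INS-1-nHDL.

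**Figure D1:**
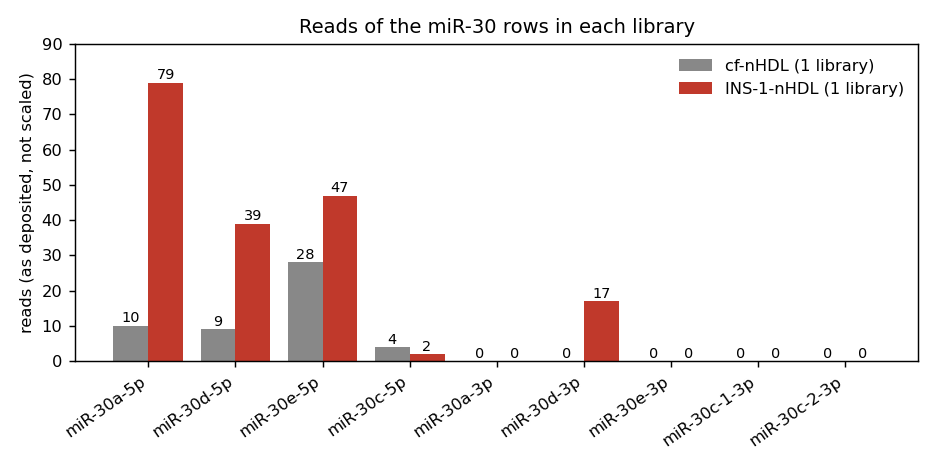
Deposited reads (vertical axis, not scaled for depth) of the 9 miR-30 rows (horizontal axis), with 1 bar for the cf-nHDL library and 1 for the INS-1-nHDL library and the count above each bar. miR-30e-5p is the tallest on cf-nHDL with 28 reads, miR-30a-5p on INS-1-nHDL with 79, and miR-30d-3p is the only 3p row with reads.

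miR-30a-5p, a widely expressed member of the family, had 10 reads on cf-nHDL against 79 on INS-1-nHDL. In normalized counts these were 14.1 and 56.1, a fold change of 3.98 (exact 95% interval 2.06 to 8.62). It stood at rank 42 among the miRNAs on cf-nHDL and at rank 18 on INS-1-nHDL. Among the 56 kept miRNAs with reads in both libraries, its fold change was rank 9 from the top, and this order is the same under any scaling.

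miR-30d-5p, the member linked to insulin gene expression, had 9 reads on cf-nHDL against 39 on INS-1-nHDL. Its normalized counts were 12.7 and 27.7, a fold change of 2.18 (1.04 to 5.13). The lower end of the interval is close to 1, and under total miRNA reads the fold change was 1.58 with an interval of 0.755 to 3.72, which holds 1. Its fold change was rank 18 of the 56.

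miR-30e-5p, which is encoded within Nfyc, had 28 reads on cf-nHDL against 47 on INS-1-nHDL. Its normalized counts of 39.4 and 33.4 gave a fold change of 0.846 (0.519 to 1.40), so under the size factors no difference was detectable at this depth. The direction depended on the scaling, as the fold change was 1.57 (0.964 to 2.61) when miR-375-3p was left out of the totals used for scaling. With no scaling it was 1.68 (1.03 to 2.78), an interval that no longer holds 1. Its fold change was rank 31 of the 56.

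miR-30c-5p, encoded once beside miR-30e and once beside miR-30a, had 4 reads on cf-nHDL against 2 on INS-1-nHDL. It was below the filter on low counts, and its ratio of 0.252 had an interval of 0.0228 to 1.76. On INS-1-nHDL there were 39.5 times as many reads of miR-30a-5p as of miR-30c-5p (10.6 to 332), and 23.5 times as many of miR-30e-5p (6.15 to 199.7). On cf-nHDL, the ratio of miR-30a-5p to miR-30c-5p was 2.50 (0.721 to 10.9) and that of miR-30e-5p to miR-30c-5p was 7 (2.45 to 27.5). Members that share a locus in the rat were thus read at different levels on INS-1-nHDL, by more than counting error. miR-30e-5p and miR-30c-5p differed in this way on cf-nHDL too. The nHDL came from human plasma, and reads it carried were not separated from those of the rat cells. The reads of miR-30c-5p cannot be assigned to either of its 2 copies.

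miR-30d-3p, the partner strand of miR-30d-5p, had 0 reads on cf-nHDL against 17 on INS-1-nHDL. With 3 reads in place of 0, it was at least 2.86-fold higher on INS-1-nHDL, a bound that allows for the 0 but not for the counting error of the 17 reads. The exact interval, which allows for both, began at 2.08 and had no upper end. A count of 0 on cf-nHDL allows a share of up to 0.0456% of its miRNA reads, and the 17 reads on INS-1-nHDL were 0.0944% (Wilson 95% interval 0.0590 to 0.151%). It was 1 of 17 kept miRNAs with 0 reads on cf-nHDL, and 8 of these, itself included, had at least 17 reads on INS-1-nHDL.

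**Figure D2:**
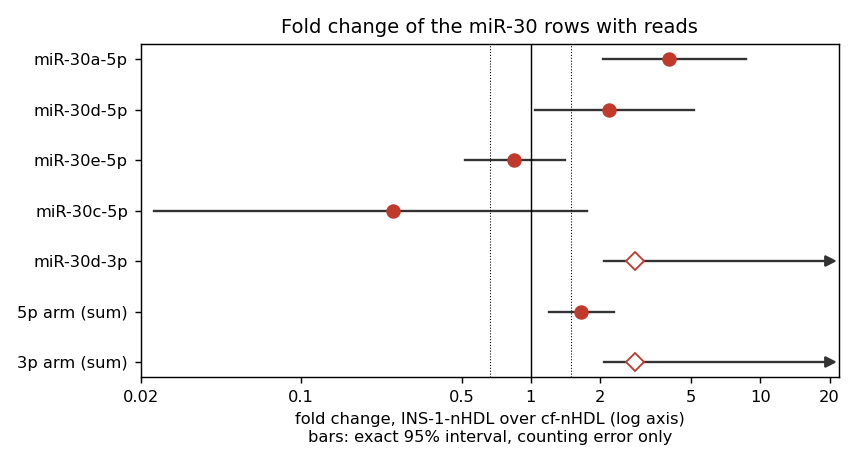
Ratio of INS-1-nHDL to cf-nHDL (horizontal log axis, DESeq2 size factors) for the 5 miR-30 rows with reads and for the sum of each arm, with exact 95% intervals that cover counting error only; open diamonds are bounds computed with 3 reads in place of 0, arrows mark intervals with no upper end, and dotted lines mark 1.5 and 1/1.5. The intervals of miR-30a-5p (2.06 to 8.62) and miR-30d-3p (from 2.08) lie above 1.5, and those of miR-30e-5p (0.519 to 1.40) and miR-30c-5p hold 1.

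Of the 4 kept members, 3 were above 1.5-fold, against 49.4% of the 81 kept miRNAs, and 0 were below 1/1.5, against 39.5%. The whole interval was above 1.5 for 2 of the 4, miR-30a-5p and miR-30d-3p, against 30.9% of the 81. Under total miRNA reads this held for 1 of the 4, against 16% of the 81, since the interval of miR-30a-5p then began at 1.49. miR-30d-3p passed the filter only through the library where it is high and could only count as higher. Without it, among miRNAs with reads in both libraries, 2 of 3 members were above 1.5-fold, against 41.1% of 56, and the whole interval was above it for 1 of 3, against 25%. The median log2 fold change of the 4 was 1.32, with miR-30d-3p at its bound, beside 0.23 over the 81 with those at 0 reads at their bounds. For the 3 with reads in both libraries it was 1.13, beside 0 over the 56, where the size factors set it. Of 9 kept rows of the let-7 and miR-98 family, another broadly expressed family, 6 were above 1.5-fold and 3 below 1/1.5, with a median log2 fold change of 1.47. With 4 members, nothing particular to miR-30 can be read from these counts.

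**Figure D3:**
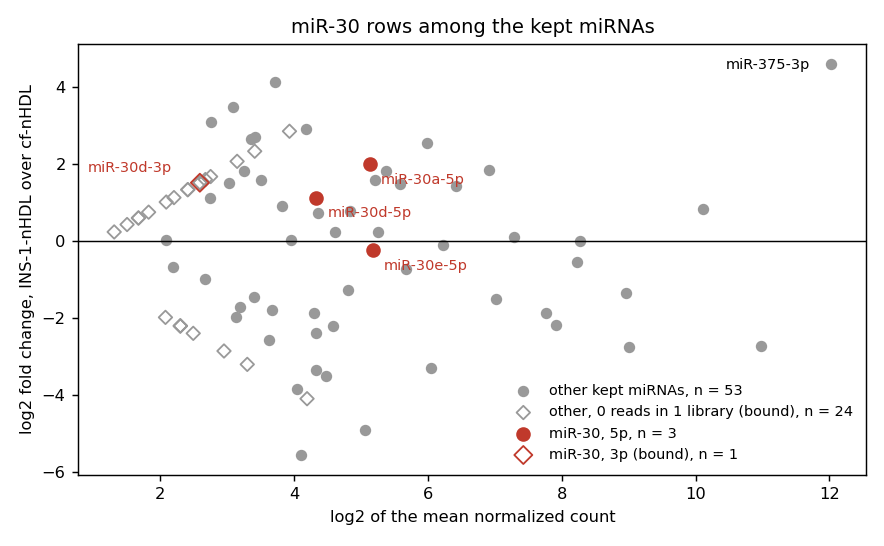
Log2 ratio of INS-1-nHDL to cf-nHDL (vertical axis) against the log2 of the mean normalized count of both libraries (horizontal axis) for the 81 kept miRNAs, 4 of them miR-30 rows in red; diamonds had 0 reads in 1 library and are at the bound computed with 3 reads. miR-30a-5p (1.99), miR-30d-3p (1.51, a bound) and miR-30d-5p (1.13) lie above 0 and miR-30e-5p lies just below it (-0.24), all far from miR-375-3p (4.61).

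Summed over the 5p arm, there were 51 reads on cf-nHDL against 167 on INS-1-nHDL, and the fold change was 1.65 (1.20 to 2.31). Under total miRNA reads it was 1.20 with an interval of 0.870 to 1.67, which holds 1, and with miR-375-3p left out of the total it was 3.06 (2.23 to 4.28). miR-30a-5p carried much of this sum, and without it the other 5p rows had 41 and 88 reads and a fold change of 1.08 (0.739 to 1.61). Without miR-30e-5p, the remaining rows held 23 and 120 reads, for a fold change of 2.63 (1.67 to 4.31). The sum of miR-30a-5p, miR-30d-5p and miR-30e-5p, which reads misassigned among these near copies would leave unchanged, was 47 and 165 reads, for a fold change of 1.77 (1.27 to 2.50). The 3p sum equals miR-30d-3p, with 0 and 17 reads. Of the 33 other kept miRNAs with reads in both libraries and at least 20 on INS-1-nHDL, those with the log2 fold change nearest to that of the 5p sum were let-7c-5p (fold change 1.65), miR-103-3p (1.71) and miR-203a-3p (1.77).

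The family as a whole, with 51 reads on cf-nHDL against 184 on INS-1-nHDL, took 0.774% (0.590 to 1.02%) and 1.02% (0.885 to 1.18%) of the miRNA reads. The difference of 0.25 percentage points had a Newcombe 95% interval of -0.031 to 0.49, which holds 0. When miR-375-3p was left out of the total, the shares were 0.803% and 2.71%, and the difference of 1.91 points had an interval of 1.47 to 2.36. Whether the interval holds 0 thus depends on counting miR-375-3p in the total. Outside the family and miR-375-3p, the table held 6303 reads on cf-nHDL against 6605 on INS-1-nHDL, while the family held 51 and 184. That total includes the fall of miR-16-5p from 2486 to 741 reads. The let-7 and miR-98 family also rose, from 94 to 324 reads. With no scaling, 59.3% of the 81 kept miRNAs were above 1.5-fold, so such a rise is not particular to miR-30.

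The make-up of the 5p arm needs no scaling between the libraries, since each share is taken within 1 library. miR-30a-5p was 19.6% of the 5p reads on cf-nHDL (11.02 to 32.5%) and 47.3% on INS-1-nHDL (39.9 to 54.9%), a difference of 27.7 percentage points (12.9 to 39.1). miR-30e-5p was 54.9% (41.4 to 67.7%) and 28.1% (21.9 to 35.4%), a difference of -26.8 points (-41.0 to -11.4). These 2 members thus changed places in the order. miR-30d-5p was 17.6% and 23.4%, and its difference of 5.7 points had an interval of -8.2 to 16.4, which holds 0. miR-30c-5p was 7.84% and 1.20%, a difference of -6.6 points (-17.3 to -0.99) that rests on 4 and 2 reads.

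**Figure D4:**
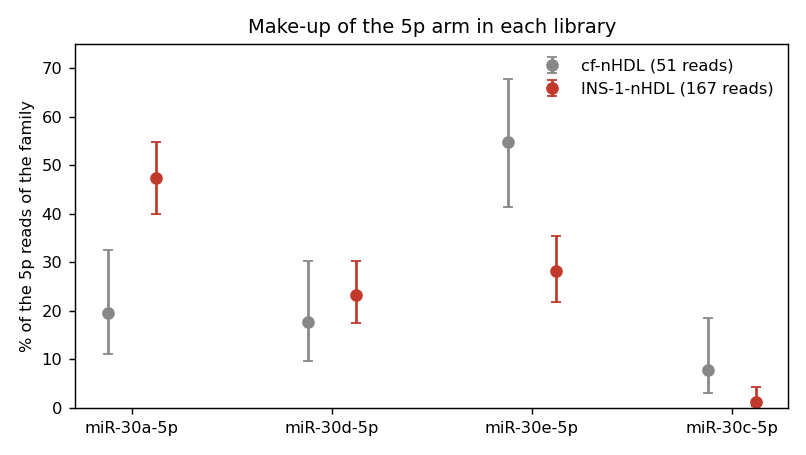
Share of each member in the 5p reads of the family (vertical axis, percent) on cf-nHDL (51 reads) and INS-1-nHDL (167 reads); points are the shares and bars their Wilson 95% intervals, which cover counting error only. The intervals of miR-30a-5p and of miR-30e-5p do not overlap between the libraries, and those of miR-30d-5p and miR-30c-5p do.

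Taken as a ratio of fold changes, which any scaling leaves unchanged, that of miR-30a-5p was 4.71 times that of miR-30e-5p (exact interval 1.98 to 11.8). That of miR-30d-5p was 2.58 times that of miR-30e-5p (1.02 to 6.94). miR-30a-5p and miR-30d-5p could not be told apart, with a ratio of 1.82 and an interval of 0.599 to 5.43. Within cf-nHDL, miR-30a-5p had 0.357 times the reads of miR-30e-5p (0.155 to 0.757), and within INS-1-nHDL it had 1.68 times its reads (1.16 to 2.47). The intervals lie on opposite sides of 1. The order on cf-nHDL was miR-30e-5p, miR-30a-5p, miR-30d-5p and miR-30c-5p, where the second and the third did not differ beyond counting error, nor did the third and the fourth. On INS-1-nHDL the order was miR-30a-5p, miR-30e-5p, miR-30d-5p and miR-30c-5p, where miR-30e-5p and miR-30d-5p did not differ beyond it, with a ratio of 1.21 (0.771 to 1.89).

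All 3p reads of the family came from miR-30d-3p on INS-1-nHDL, so the values of the 3p arm describe that row and are no separate measurement. The 3p arm held 0 of 51 family reads on cf-nHDL, which allows a share of up to 5.88%, and 17 of 184 on INS-1-nHDL, or 9.24% (5.85 to 14.3%). The difference of 9.24 points had an interval of 1.46 to 14.3. Within miR-30d alone, the comparison of arms from the same hairpin, the 3p strand held 0 of 9 reads on cf-nHDL, which allows up to 33.3%, and 17 of 56 on INS-1-nHDL, or 30.4% (19.9 to 43.3%). The ratio of fold changes within miR-30d had an interval that ended at 1.33 and holds 1, so that a difference in the arms of miR-30d itself between the libraries was not detectable with 9 reads.

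Within INS-1-nHDL, the members differed in their arms. The 3p strand of miR-30a had 0 reads beside 79 of the 5p strand, which allows a 3p share of up to 3.80%, and that of miR-30e had 0 beside 47, which allows up to 6.38%. Both limits, and the upper Wilson ends of 4.64% and 7.56%, are below the 19.9% at which the interval of miR-30d begins. The 3p strands of miR-30c-1 and miR-30c-2 had 0 reads in both libraries. Of 21 hairpins of the table with both arms listed and at least 20 reads on INS-1-nHDL, 18 had 0 reads on the arm with fewer reads, and 0 had a larger share on that arm than miR-30d. Those with reads on both arms besides miR-30d were let-7d, where that arm held 13.3%, and miR-423, where it held 11.5%. This comparison of hairpins, and its minimum of 20 reads, was chosen after the values of miR-30d were seen.

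**Figure D5:**
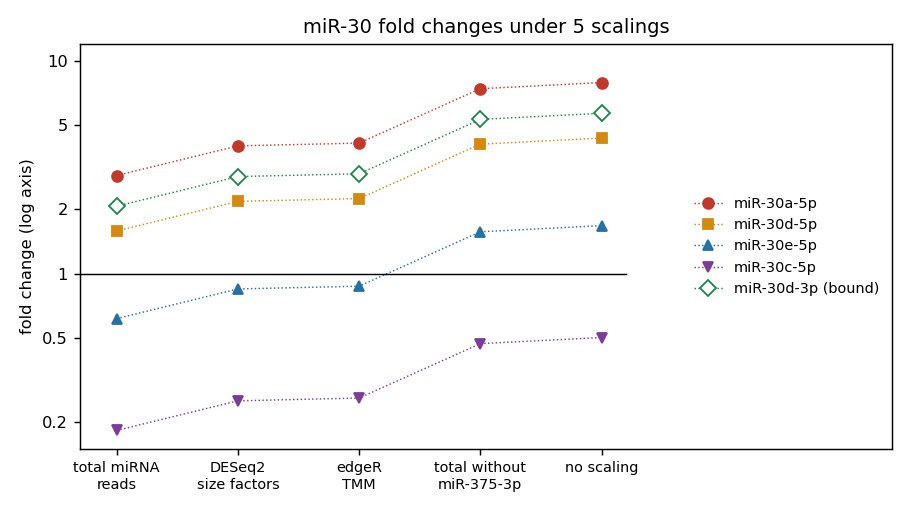
Ratio of INS-1-nHDL to cf-nHDL (vertical log axis) of the 5 miR-30 rows with reads under 5 scalings (horizontal axis); the horizontal line marks 1, open diamonds are bounds computed with 3 reads in place of 0, and dotted lines join the values of a row. Each scaling moves every row by the same factor, and miR-30e-5p is the only row that crosses 1, from 0.846 under the size factors to 1.57 and 1.68 under the scalings on the right.

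The size of every fold change depended on the scaling, and the order of the members did not. Scaling by total miRNA reads lowered all log2 fold changes by the same amount (-0.46), whereas the same total with miR-375-3p left out raised them (0.89), nearly as far as no scaling did (0.99). miR-30a-5p stayed above 1 in its whole interval throughout, at 2.89 (1.49 to 6.26) under total miRNA reads, 7.39 (3.82 to 16.01) with miR-375-3p left out of the total and 7.90 (4.08 to 17.1) with no scaling. Under the latter 2 scalings 4 of the 4 kept members were above 1.5-fold, where 59.3% of the 81 kept miRNAs were above it too.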

How the data were processed

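Small RNA was sequenced from cf-nHDL and INS-1-nHDL, 1 library each. Per the methods, the authors trimmed adapters (Cutadapt), aligned reads over 16 nt to the rat genome with Bowtie 1.1.2 and 1 mismatch, and deposited the expected counts of each mature miRNA without normalization. A second table of theirs repeats these reads beside a DESeq2 1.18.1 comparison (base mean, fold changes, standard errors and p-values) and was not used here. How reads that match several miRNAs were divided is not given in the sources used here.

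The expected counts were set to the nearest whole read, after which 120 of 406 rows had reads. A row was kept where either library had 5 reads or more. Size factors are medians of ratios (DESeq2 1.42.0, R 4.3.3). Depth was 6585 and 18008 miRNA reads, so that 0 reads allow up to 0.0456% and 0.0167% of them (3 reads of the total). This is another kind of limit than the upper end of a Wilson interval. A single library per group allows no test between conditions, and no p-value is given. Fold changes divide the normalized count on INS-1-nHDL by that on cf-nHDL, and their exact 95% intervals (Clopper-Pearson) condition on the summed reads. A count of 0 was set to 3 reads, as a bound. Shares have Wilson intervals, their differences Newcombe intervals (statsmodels 0.14.6), and ratios of fold changes exact conditional intervals (scipy 1.17.1). The interval computation was tested on simulated counts with counting error only, a known depth ratio and most rows unchanged. That setting differs from these data, so the test does not bear on their scaling.

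The rule for naming took every miR-30 row, miR-375-3p, and the 3 miRNAs nearest in fold change to the 5p sum; let-7d, miR-423 and miR-16-5p were named after their values were seen. The members, lists and rules were chosen with earlier results of these data known. Alternatives were edgeR 4.0.16 TMM, total reads with and without miR-375-3p, size factors restricted to miRNAs that reach 10 reads in both libraries, no scaling, filters of 1 and 20 reads, a pseudocount of 1, deposited decimals, and sums of near copies. The ratio relative to the rest of the 5p arm and the arm ratio of miR-30d alone, and counts of members with reads in both libraries or with the whole interval under total reads, were added after seeing the data.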

Additional observations from a re-analysis of the deposited data

How the results depend on the processing

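No paired analysis was possible because the study has a single pair of libraries, which also left nothing to leave out. Of 96 values under an alternative, 40 were left out. These were mainly alternatives that could not move a value (decimals, which no miR-30 row has, and size factors that came out the same) and values with no upper end to their interval. Of the other 56, 45 stayed within the interval of the value reported, or within 1.5 times of the count, and 11 moved. Each scaling moves all members by the same factor, so these are not separate checks. Under total miRNA reads the bound of miR-30d-3p, which is also that of the 3p arm, was 2.07 and the 5p arm was at 1.20. With miR-375-3p left out of the total the 5p arm was at 3.06 and miR-30e-5p at 1.57; with no scaling they were at 3.27 and 1.68, and the interval of the latter, 1.03 to 2.78, no longer held 1. The sum over the 3 near copies, 1.77, lay outside the intervals of miR-30a-5p and of miR-30e-5p. Relative to the rest of the 5p arm, an alternative added after seeing the data, miR-30e-5p was at 0.322 (0.197 to 0.534). Without miR-375-3p in the total, the family held 2.71% of the reads of INS-1-nHDL. A pseudocount of 1 gave 13.1 for miR-30d-3p in place of its bound of 2.86, so its size is set by the handling of the 0. The number of members above 1.5-fold was 3 of 4 (49.4% of all kept miRNAs), or 2 of 4 (30.9%) when the whole interval had to pass. In counts chosen after seeing the data, the whole interval passed for 1 of 4 (16%) under total miRNA reads and, under the size factors, for 1 of 3 (25%) with reads in both libraries. Counts limit the rest: 51 family reads on cf-nHDL leave the arms and miR-30c-5p poorly measured there. The sum of miR-30b-5p with miR-30c-5p was not run, since miR-30b-5p is not analysed here.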
